A study of Drosophila melanogaster with 36 samples.

Results

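The chorion genes of Drosophila melanogaster encode the structural proteins of the outer eggshell. The 10 genes considered were Cp7Fa, Cp7Fb, Cp7Fc, Cp36, Cp38, Cp15, Cp16, Cp18, Cp19 and Femcoat. A gene was represented by its probe set with a single annotated gene, found by current symbol or synonym. Of the 10 genes 8 had such a probe set, 1 each, and Cp7Fa and Cp7Fb were not analysed here. All 8 were among the 8199 probe sets tested, which stand for 6884 named genes.

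Transcripts of whole adult female flies were measured, from total RNA, on 36 one-colour oligonucleotide arrays. Flies came from a line selected for heat resistance and from a nonselected line. Heated flies spent 1 h at 36 °C and were taken 0.25, 1, 2, 4, 8, 16, 32 and 64 h later, and untreated flies were taken from both lines. This gives 18 groups with 2 arrays apiece, labelled as bioreplicates. The labels do not give the age of the flies, the number of flies per sample, the number of selected populations or the time of day. Each line has a single untreated group with no sampling time given, so heat, age and time of day cannot be told apart in the comparisons with untreated flies. Comparisons between times after heat may also hold differences in age and time of day.

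In the fly ovary, follicle cells surround each developing egg chamber and lay down the eggshell in sequence. They secrete the vitelline membrane first and the chorion in the last stages before the egg is laid. To make enough chorion protein in a short time, follicle cells amplify the DNA of the chorion gene clusters and then transcribe the genes in a fixed order. Cp36 and Cp38 are early chorion genes, Cp15 and Cp18 are late ones. Chorion transcripts therefore mark egg chambers in the final stages of oogenesis. By the RefSeq gene order of the Release 6 assembly, Cp7Fa, Cp7Fb, Cp7Fc, Cp36 and Cp38 are consecutive protein-coding genes on chromosome X. Cp18, Cp15, Cp19 and Cp16 are consecutive on chromosome 3L, and Femcoat, an eggshell gene, lies elsewhere on X between CG15570 and Muc4B.

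Values are background-corrected intensities on the log2 scale. A probe set reports its own gene only, so levels were compared between arrays and never between genes. Arrays under an intensity of 32, which is 5 on the log2 scale and the limit below which probe sets were not tested, were set to 32 for a fold, which is then given as "at least". Log2 changes were taken from the values as they stood, so those that hold arrays under that limit have no exact size. Because whole flies were used, fewer follicle cells making chorion and less chorion RNA per cell cannot be told apart. All 8 probe sets were above that limit in every untreated array. Cp15, a late chorion gene, stood at 13.51 and 13.59 in selected and at 13.79 and 14.03 in nonselected untreated flies. Femcoat stood at 8.08 and 8.44 in selected and 9.33 and 9.19 in nonselected untreated flies.

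One array stood apart from the others by another tissue's transcripts. Selected 32 h replicate 2 had the highest value of 16 of 18 male reproductive tract genes on the array, 14 of them over an intensity of 32. Their summed intensity was 2559, against 134 to 204 in the other 35 arrays. Acp95EF, a seminal fluid gene, stood at 9.69 there and at most at 2.31 elsewhere. The 3' to 5' log2 signal ratio of the control transcripts split the arrays by replicate number, at 1.64 to 2.28 in the 18 replicate 1 arrays and 1.07 to 1.51 in the 18 replicate 2 arrays. The ratio was below that of the untreated array of the same line and replicate number in 4 of 4 arrays at 16 h. The count was 3 of 4 at 1, 2, 4, 32 and 64 h and 2 of 4 at 0.25 and 8 h. The part of the ratio in the chorion changes was not tested, and changes within each replicate set are given beside the results.

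From 0.25 to 4 h no chorion gene passed the test. The test was limma's moderated test on all 36 arrays, both lines averaged, 4 arrays against 4 untreated, with Benjamini-Hochberg adjustment over the 8199 probe sets and a threshold of 0.05. The median log2 change of the 8 genes was -0.72 at 0.25 h, -0.55 at 1 h, -0.20 at 2 h and -0.27 at 4 h. The median of all tested probe sets lay between 0.00 and 0.04 at these times. All 8 estimates were below 0 at 0.25 h and 1 h, and 6 of 8 at 2 h and 4 h. Within replicate sets the median change at 2 h was 0.18 in replicate 1 and -0.83 in replicate 2, and at 4 h it was 0.05 and -0.48, so the sign differed between the sets. Of all probe sets 0.756% passed at 0.25 h, 1.27% at 1 h, 1.17% at 2 h and 0.354% at 4 h, in either direction. None of the 8 genes had an unadjusted p under 0.05 at any of these 4 times, where 372 to 676 of all 8199 probe sets had one. At 0.25 h Cp18 had 9.97 and 11.79 in selected and 11.85 and 12.33 in nonselected flies, overlapping with untreated flies, which had 11.58 and 12.90 in the selected and 12.88 and 13.16 in the nonselected line. Its estimate was the lowest of the 8 at that time (log2 change -1.14, SE 1.28, adjusted p = 0.999). With the fit restricted to the 20 arrays from untreated to 4 h, an alternative chosen after the values were seen, the SE of Cp18 was 0.40 (adjusted p = 0.421), and no chorion gene passed at any of the 4 times. Single arrays were low for single genes, such as selected 1 h replicate 1 for Cp7Fc (8.36, against 10.89 in replicate 2) and selected 2 h replicate 2 for Cp38 (11.36, against 13.71 in replicate 1).

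**Figure D1:**
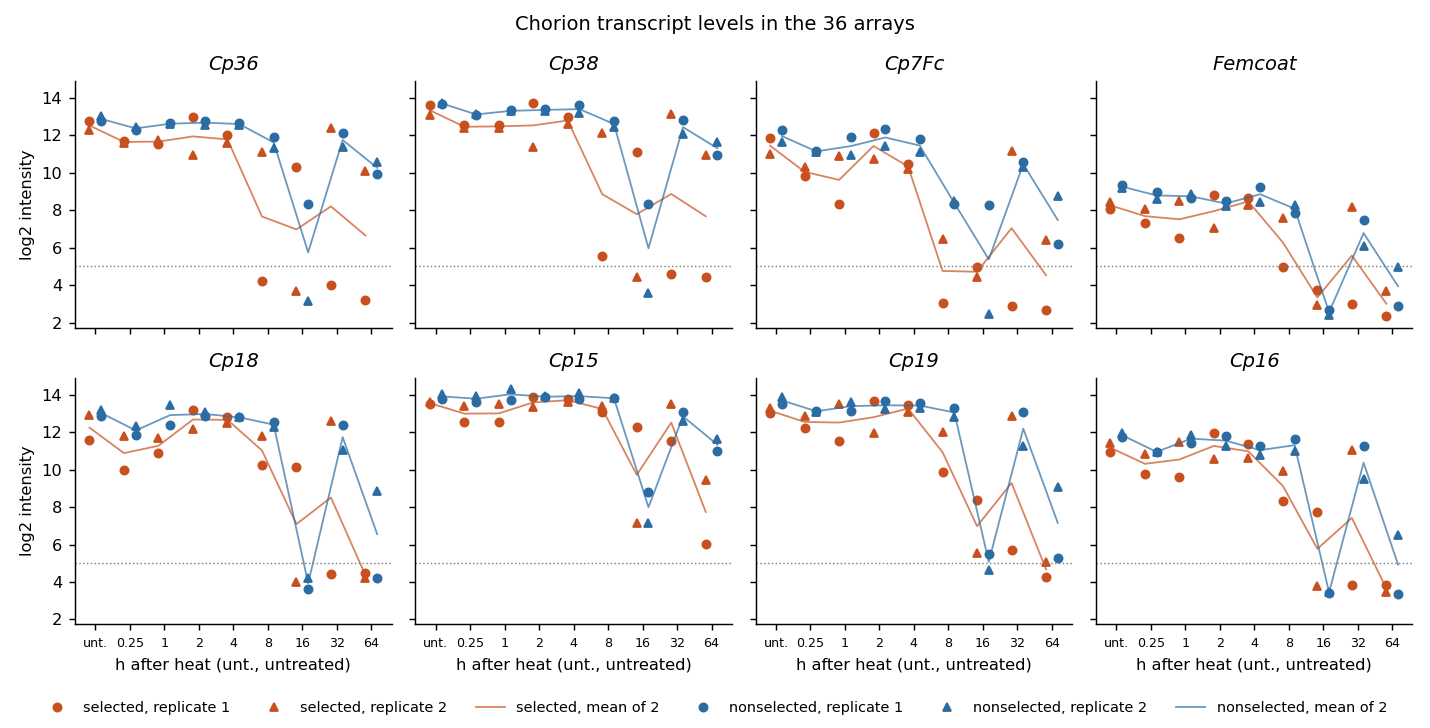
Log2 intensity of the 8 chorion genes (vertical axes) in untreated flies and at 8 times after heat (horizontal axes). Each point is 1 array, lines join the means of 2 replicates, and the dotted line marks an intensity of 32. Most arrays up to 4 h lie near the untreated ones, single arrays are far lower from 8 h on, and the means are lowest at 16 or 64 h.

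At 8 h the lowest estimate was that of Cp7Fc. Cp7Fc, a gene of the X-linked cluster, stood at 3.05 and 6.47 in selected and 8.31 and 8.47 in nonselected flies. Its untreated values were 11.88 and 11.01 in selected and 12.27 and 11.65 in nonselected flies. The 4 arrays at 8 h all lay below the 4 untreated arrays. The log2 change of Cp7Fc was -5.13 (SE 1.31) and did not pass the test (adjusted p = 0.0672). It passed with values under 32 set to 32, with 16 added to each value, with array weights and with the replicate number in the model (adjusted p = 0.00509 to 0.0446).

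For Cp36 and Cp38, the early chorion genes, a single array was far below the others at 8 h. Cp36 stood at 4.20 and 11.13 in selected flies and at 11.89 and 11.35 in nonselected flies. Untreated flies had 12.75 and 12.29 in the selected and 12.74 and 13.01 in the nonselected line. The 8 h arrays of Cp36 did not overlap with the untreated ones, and the far lower one was selected replicate 1. Cp38 showed the same order, with 5.58 and 12.13 in selected and 12.75 and 12.46 in nonselected flies at 8 h. Neither passed (Cp36 log2 change -3.06, SE 1.69, adjusted p = 0.668; Cp38 -2.80, SE 1.66, adjusted p = 0.711).

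The late gene Cp15 was close to its untreated level at 8 h. Its values were 13.06 and 13.41 in selected and 13.81 and 13.80 in nonselected flies, overlapping with untreated flies (log2 change -0.21, SE 0.75). Estimates for Cp16, Cp18 and Cp19 ran from -1.43 for Cp19 to -0.92 for Cp18. Femcoat stood at -1.58 (SE 0.78, adjusted p = 0.571). In all, 3 of the 8 genes, those of the X-linked cluster, had 8 h arrays entirely below the untreated arrays, against 3.04% of all probe sets. None passed the test, against 0.354% of all probe sets that passed as lower. Before adjustment 1 of the 8 genes had a p under 0.05, as had 746 of all 8199 probe sets, in either direction. The median log2 change of the 8 genes was -1.99 in replicate set 1 and -1.14 in replicate set 2.

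At 16 h all 8 chorion genes fell, against 0.915% of all probe sets that passed as lower. Their median log2 change was -6.65, against 0.01 for all tested probe sets, and the range was -7.40 to -4.87. In every one of the 8 genes the 4 arrays at 16 h lay below the 4 untreated arrays, against 3.77% of all probe sets. Within replicate sets, 2 arrays against 2, all 8 genes were lower in both, with a median log2 change of -5.39 in replicate 1 and -8.26 in replicate 2. In replicate 2 at 16 h, 6 of the 8 genes in selected and 7 in nonselected flies were under an intensity of 32. In replicate 1 these counts were 2 and 3.

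Within the 3L cluster the 16 h arrays split into 3 low ones and selected replicate 1. Cp18, a late chorion gene, stood at 10.16 and 4.02 in selected and 3.63 and 4.23 in nonselected flies. Untreated flies had 11.58 and 12.90 in the selected and 12.88 and 13.16 in the nonselected line. Cp18 was under an intensity of 32 in 3 of 4 arrays at 16 h, at least 80.9-fold lower over the 4 (log2 change -7.12, SE 1.28, adjusted p = 0.00237). Cp16 repeated the pattern, with 7.75 and 3.79 in selected and 3.41 and 3.48 in nonselected flies, against 10.92, 11.42, 11.73 and 11.94 in untreated flies. Cp19 had 8.40 and 5.56 in selected and 5.51 and 4.63 in nonselected flies at 16 h, against 13.01, 13.29, 13.52 and 13.87 in untreated flies. Cp16 fell at least 56.2-fold and Cp19 at least 158-fold (adjusted p = 0.000519 and 0.000266). Of these 4 genes Cp15 had the smallest fall. It stood at 12.27 and 7.17 in selected and 8.83 and 7.16 in nonselected flies at 16 h, 29.3-fold lower over the 4 arrays (log2 change -4.87, SE 0.75, adjusted p = 0.000648).

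For Cp36 and Cp38 of the X-linked cluster, replicate 1 of both lines kept more signal at 16 h than replicate 2. Cp36 had 10.29 and 3.67 in selected and 8.33 and 3.18 in nonselected flies, with 2 of 4 arrays under an intensity of 32. The corresponding values of Cp38 were 11.13 and 4.45 in selected and 8.35 and 3.59 in nonselected flies. Cp7Fc had 4.99 and 4.44 in selected and 8.27 and 2.48 in nonselected flies, so for this gene the nonselected replicate 1 array was the high one. The fall was at least 46.7-fold for Cp36 (log2 change -6.33, SE 1.69, adjusted p = 0.0492), at least 71.3-fold for Cp38 (adjusted p = 0.0319) and at least 59.1-fold for Cp7Fc (adjusted p = 0.00508).

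Femcoat was the 1 gene under an intensity of 32 in all 4 arrays at 16 h. Its values were 3.77 and 2.93 in selected and 2.70 and 2.42 in nonselected flies. The fall was at least 13.6-fold, a bound because no array at 16 h reached that intensity (log2 change -5.81, SE 0.78, adjusted p = 0.000146). Of the 8 calls at 16 h, 6 held whichever of the 36 arrays was left out. Cp36 lost its call in 28 of the 36 cases (highest adjusted p = 0.198, without selected 16 h replicate 2). Cp38 lost its call without any of the 4 untreated arrays or without replicate 2 of either line at 16 h (highest adjusted p = 0.152). In a fit restricted to the 16 arrays of untreated, 16, 32 and 64 h, chosen after the values were seen, 3 genes passed at 16 h, namely Femcoat, Cp19 and Cp16 (adjusted p = 0.0142, 0.0336 and 0.0447).

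**Figure D2:**
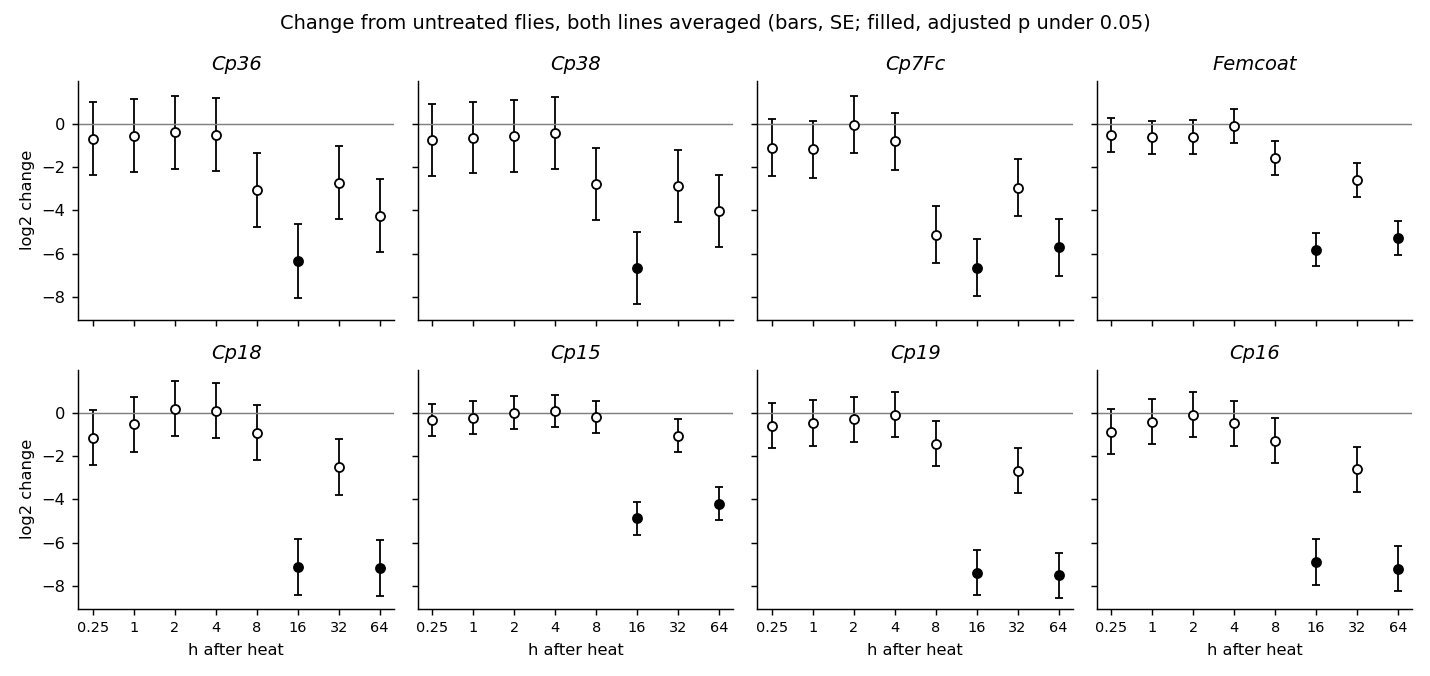
Log2 change from untreated flies for each chorion gene (vertical axes) at 8 times after heat (horizontal axes), both lines averaged. Points are fitted changes, bars are SE, and filled points passed the test. All 8 genes passed at 16 h and 6 at 64 h, and none at the other times.

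At 32 h no chorion gene passed, and 1 array was far below the other 3. Cp18 had 4.44 and 12.58 in selected and 12.40 and 11.06 in nonselected flies. Cp36 had 4.01 and 12.41 in selected and 12.10 and 11.40 in nonselected flies, and Femcoat 3.0 and 8.16 in selected and 7.45 and 6.10 in nonselected flies. Selected replicate 1 was the low array for all 8 genes. In the other 3 arrays the median change of the 8 genes from untreated flies was -0.42 in selected replicate 2, -0.62 in nonselected replicate 1 and -1.52 in nonselected replicate 2. The median log2 change over the 4 arrays was -2.65, and Femcoat had the smallest p (log2 change -2.58, SE 0.78, adjusted p = 0.134). Of the 8 genes 4 had an unadjusted p under 0.05, as had 1105 of all 8199 probe sets, in either direction. After adjustment 0.415% of all probe sets passed as lower. Within replicate sets the median change was -3.84 in replicate 1, which holds the low array, and -1.01 in replicate 2. The arrays of 1 gene, Cp15, lay entirely below the untreated ones, against 1.48% of all probe sets.

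The high array of the selected line at 32 h is the one with male transcripts. Without it the selected line is represented by its low replicate alone. The result of the test at 32 h depended on which selected array was kept. The part of the male transcripts in the chorion level of the high array was not tested.

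At 64 h 6 of the 8 genes fell, Cp7Fc, Cp15, Cp16, Cp18, Cp19 and Femcoat, against 1.34% of all probe sets that passed as lower. The median log2 change of the 8 was -5.49, against 0.00 for all tested probe sets. As at 16 h, all 4 arrays lay below all 4 untreated arrays in each of the 8 genes, against 4.94% of all probe sets. Within replicate sets all 8 genes were again lower in both, with medians of -6.90 in replicate 1 and -4.12 in replicate 2. In replicate 1 at 64 h, 7 of the 8 genes in selected and 3 in nonselected flies were under an intensity of 32. In replicate 2 these counts were 3 and 1. The comparisons at 16, 32 and 64 h share the untreated arrays.

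Cp18, Cp16 and Cp19 of the 3L cluster were low in 3 arrays at 64 h and higher in nonselected replicate 2. Cp18 had 4.48 and 4.24 in selected and 4.23 and 8.88 in nonselected flies, at least 101.0-fold lower than untreated flies (log2 change -7.17, SE 1.28, adjusted p = 0.00225). Cp16 had 3.85 and 3.45 in selected and 3.37 and 6.48 in nonselected flies, at least 70.1-fold lower (adjusted p = 0.000278). Cp19 had 4.29 and 5.06 in selected and 5.26 and 9.05 in nonselected flies, at least 161-fold lower (adjusted p = 0.000209). Cp15 did not follow them and was lower in both selected than in both nonselected arrays, with 6.05 and 9.43 in selected and 11.004 and 11.65 in nonselected flies, 18.3-fold lower over the 4 arrays (log2 change -4.20, SE 0.75, adjusted p = 0.00225).

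The early genes Cp36 and Cp38 did not pass at 64 h, and a single array was far below the other 3. Cp36 stood at 3.21 and 10.11 in selected and 9.94 and 10.59 in nonselected flies (log2 change -4.24, SE 1.69, adjusted p = 0.22). Cp38 stood at 4.41 and 10.95 in selected and 10.95 and 11.67 in nonselected flies (log2 change -4.03, SE 1.66, adjusted p = 0.24). Selected replicate 1 was under an intensity of 32 for both, while the other 3 arrays were above 9.9. Cp7Fc had 2.68 and 6.40 in selected and 6.22 and 8.74 in nonselected flies, at least 34.6-fold lower (log2 change -5.70, SE 1.31, adjusted p = 0.0157). Its call was lost without replicate 1 of either line at 64 h or of either line untreated (highest adjusted p = 0.112). Femcoat was under an intensity of 32 in all 4 arrays at 64 h, at 2.34 and 3.69 in selected and 2.89 and 4.99 in nonselected flies, at least 13.6-fold lower (adjusted p = 0.000349). The other 5 calls held whichever array was left out. In the fit restricted to untreated and 16 to 64 h, 3 genes passed at 64 h, Femcoat, Cp19 and Cp16 (adjusted p = 0.0197, 0.0237 and 0.0319).

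Over the whole series 6 of the 8 genes changed by the moderated F-test on the 8 times (smallest adjusted p = 1.31e-05, Cp19), against 13.2% of all probe sets. Cp36 and Cp38 did not pass (adjusted p = 0.0798 and 0.0647). Set against each other without the untreated arrays, the 32 h mean was above the 16 h mean in all 8 genes, with overlapping arrays. The differences ran from 3.23 to 4.71 on the log2 scale. The lowest was that of Femcoat, under an intensity of 32 in all 4 arrays at 16 h and at least 2.27-fold higher at 32 h. In selected replicate 1 the genes over that intensity at 16 h were lower at 32 h, such as Cp18 (10.16 at 16 h and 4.44 at 32 h). The high selected array at 32 h is the one with male transcripts. Of the 8 genes Cp15 rose (12.67 ± 0.85 at 32 h and 8.86 ± 2.41 at 16 h, SD, n = 4 each, log2 change 3.82, adjusted p = 0.0318), against 0.0244% of all probe sets that passed as higher. The call of Cp15 was lost without either nonselected array at 16 h or 32 h, without selected 16 h replicate 2 and without selected 32 h replicate 2. The number of genes that passed as higher also depended on selected 32 h replicate 1. From 32 to 64 h no gene passed, and Cp19 came nearest (5.92 ± 2.13 at 64 h and 10.73 ± 3.46 at 32 h, SD, n = 4 each, log2 change -4.82, adjusted p = 0.0502), where 0.0244% of all probe sets passed as lower. The number of genes that passed from 32 to 64 h changed with single arrays left out, selected 32 h replicate 1 among them.

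The clusters differed in which arrays were low. For each array the change of a gene from the mean of the 4 untreated arrays was taken, and the median over Cp36, Cp38 and Cp7Fc was set beside that over Cp15, Cp16, Cp18 and Cp19. At 8 h the X-linked median was below the 3L median in all 4 arrays, at -8.50 and -1.57 in selected and -0.81 and -1.35 in nonselected flies. The 3L medians at 8 h were -2.78 and -1.12 in selected and -0.01 and -0.43 in nonselected flies. At 64 h the X-linked medians were -9.12 and -2.59 in selected and -2.76 and -2.11 in nonselected flies. The 3L medians at 64 h were -7.91 and -8.21 in selected and -8.14 and -4.06 in nonselected flies, so there the 3L cluster was lower in 3 of 4 arrays. In the fourth, selected replicate 1, 7 of the 8 genes were under an intensity of 32, where values have no order. At 16 h replicate 2 had 6 such genes in selected and 7 in nonselected flies, and in replicate 1 of both lines the 3L median was the lower one. These medians are a description and were not tested.

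**Figure D3:**
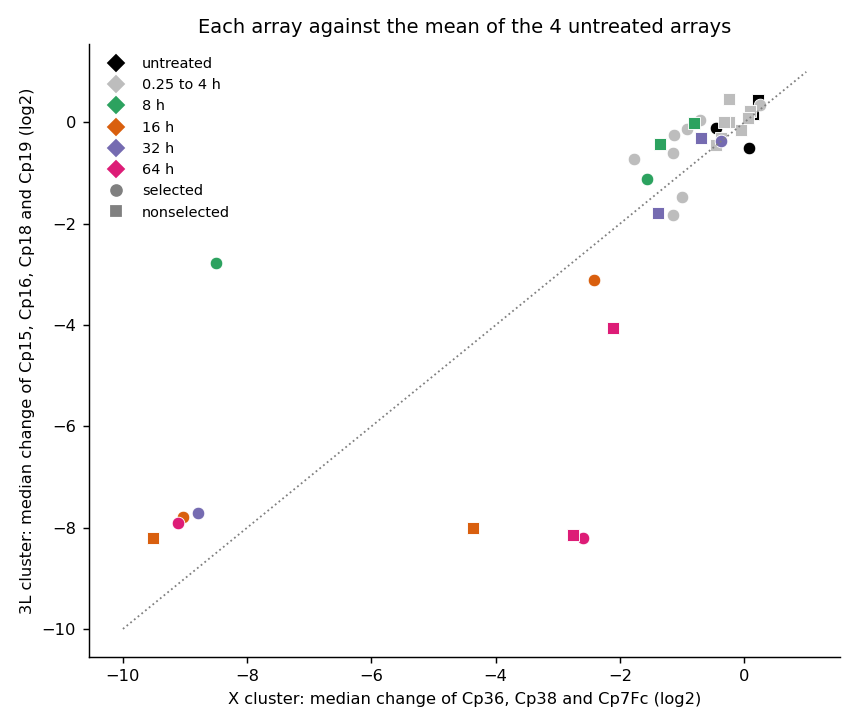
Median log2 change of the X-linked cluster (horizontal axis) and of the 3L cluster (vertical axis) in each of the 36 arrays, relative to the mean of the 4 untreated arrays. Circles are the selected and squares the nonselected line. The 8 h arrays lie above the dotted line of equal change, and 3 of the 4 arrays at 64 h lie below it.

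Genes of a cluster followed each other across the arrays. Over the 36 arrays Pearson's r between members ran from 0.74 to 1.00 for the 28 pairs of genes, with a median of 0.86. Cp36 and Cp38, neighbours on X, gave 0.997, and Cp16 and Cp19, neighbours on 3L, gave 0.992. The 12 pairs between the clusters lay between 0.74 and 0.85, below the 6 pairs within the 3L cluster (0.90 to 0.99) and the 3 within the X-linked cluster (0.89 to 1.00). Femcoat, which is on X but outside the cluster, was most like Cp19 (0.978). The points share the course over time. Differences between the 2 replicates of a group, which do not hold the group means, gave r between 0.52 and 1.00 over the 18 groups, with 0.998 for Cp36 and Cp38. By this measure the pairs within the 3L cluster (0.61 to 0.97) and those between the clusters (0.56 to 0.81) overlapped, the low 3L pairs being those of Cp15. The differences were largest in some late groups, such as selected 32 h flies (median 7.68), so those groups weigh most in r. These correlations are descriptions of the same 36 arrays, which share their normalization.

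The spread between replicates was large for these genes and was mostly late. The residual SD, which is the SD within groups of 2, was 2.59 for Cp36 and 2.55 for Cp38, the 2 largest of the 8199 probe sets. Cp7Fc ranked 9 from the largest, Cp18 12, Cp19 27, Cp16 28, Femcoat 55 and Cp15 59. These SDs and ranks hold values under an intensity of 32 as they stood, though such values have no order. With values under 32 set to 32, the SE of Cp7Fc at 8 h was 0.93 in place of 1.31. Up to 4 h the SD of the 8 genes lay between 0.36 and 0.78, where the median of all tested probe sets was 0.22. From 8 to 64 h it lay between 1.63 and 3.85, and the median of all was 0.25. The test used 1 SD per gene for all 18 groups. For Cp18 the SE was 1.28 in that fit, 0.40 in the fit from untreated to 4 h and 1.72 in the fit of untreated and 16 to 64 h. With 1 SD per gene, p-values at late times are therefore too small for these genes and those at early times too large. The replicates of selected 32 h flies differed most, by a median of 7.68 log2 units over the 8 genes. Nonselected 8 h replicates differed by 0.36, so not every late group was spread.

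**Figure D4:**
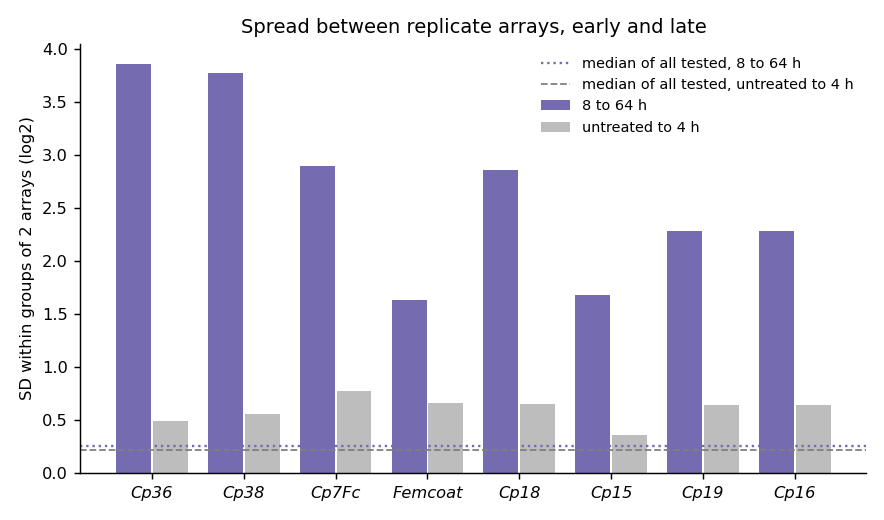
SD within groups of 2 arrays (vertical axis, log2 units) of the 8 chorion genes from 8 to 64 h (purple bars) and from untreated to 4 h (grey bars). Lines give the medians of all tested probe sets, 0.25 and 0.22. The late SD of each gene is above its early SD.

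The comparison of lines asked whether chorion levels differ in flies selected for heat resistance. Averaged over the 9 times, all 8 genes were lower in selected flies, by 0.61 (Cp15) to 1.74 (Cp7Fc) on the log2 scale, and none passed the test. Over all probe sets 12.2% passed, 6.06% as lower and 6.13% as higher. Cp7Fc averaged 8.22 ± 3.35 in selected and 9.95 ± 2.52 in nonselected flies (SD, n = 18 each, which holds the course over time). It came nearest to the threshold (log2 difference -1.74, SE 0.62, adjusted p = 0.0691) and passed with the same 4 settings as at 8 h. Leaving out single arrays, among them the array with male transcripts, selected 32 h replicate 2, changed how many genes passed as lower in selected flies. At single times the selected mean was the lower one for all 8 genes at 8 of 9 times. At 16 h it was the lower one for 1 gene, Cp7Fc, and the median of selected minus nonselected was 1.77. Cp7Fc was under an intensity of 32 in both selected arrays there. In replicate 2 at 16 h, 6 of the 8 genes in selected and 7 in nonselected flies were under it. Cp15 stood at 12.27 in selected and 8.83 in nonselected replicate 1, and at 7.17 and 7.16 in replicate 2. The line difference at 16 h was not tested.

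Untreated flies of the lines showed the same order without a call. Selected minus nonselected ran from -1.0 for Femcoat to -0.35 for Cp36 on the log2 scale (limma, smallest unadjusted p = 0.375). The arrays of 5 genes did not overlap between the lines, all lower in selected flies, and 17.1% of all probe sets were lower without overlap in this comparison of 2 against 2. No probe set passed for untreated flies in limma (148 had an unadjusted p under 0.05) or for the line by time interaction (36 had an unadjusted p under 0.05). For the chorion genes the smallest interaction p was 0.168 before adjustment. No different course in the lines was detected.

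Within each line 16 h and 64 h were set against the untreated flies of that line. In nonselected flies 5 genes fell at 16 h (Cp15, Cp16, Cp18, Cp19 and Femcoat) and 3 at 64 h (Cp16, Cp19 and Femcoat), where 0.463% and 0.281% of all probe sets passed as lower. In selected flies none passed at 16 h and 5 fell at 64 h, the same 5 genes as in nonselected flies at 16 h, against 0.0122% and 0.207% of all probe sets. These calls are of 2 arrays against 2 with the spread of all 18 groups, and the difference between the lines is the interaction given above. The call of Cp18 in selected flies at 64 h was lost in 30 of 36 cases with an array left out, and with no filter, median centring or the trend and robust options (adjusted p = 0.0705, 0.0562 and 0.0576). Femcoat lost its call there with values under 32 set to 32 (adjusted p = 0.074), while Cp7Fc gained one with that setting and with array weights (adjusted p = 0.0488 and 0.00623). Cp19 in nonselected flies at 64 h lost its call in 21 of 36 cases and with the same 3 settings as Cp18 (adjusted p = 0.0636, 0.0531 and 0.0513). Leaving out either untreated array of the line brought each of the 3 counts above 0 to 0. In selected flies at 16 h some genes passed without either of the selected 32 h arrays or without selected 16 h replicate 1. The count was also 0 without selected 64 h replicate 1 for selected flies at 64 h, and without nonselected 64 h replicate 1 for nonselected flies at 64 h.

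Other genes of egg formation were taken from lists chosen with earlier results of these data known. Of 9 tested vitelline membrane and other follicle cell eggshell genes, 3 fell at 8 h, 3 at 16 h and 3 at 64 h, and none rose. Of all probe sets 0.354%, 0.915% and 1.34% passed as lower at these times. At 8 h these were Vm32E (log2 change -4.55, SE 1.11), which encodes a vitelline membrane protein, dec (-4.36, SE 0.96), whose follicle cell proteins are needed for a normal eggshell, and Fcp3C (-5.64, SE 1.17), a follicle cell protein gene. Their list had a median of -3.82 at 8 h, beside -1.50 for the chorion genes and 0.00 for all tested probe sets. At 4 h no gene of the list passed, and its median was -1.99, beside -0.27 for the chorion genes.

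At 16 h the order of these lists was the other way round. The genes that fell were Fcp3C (-5.01), yellow-g (-6.46) and yellow-g2 (-5.49). Both of the yellow family genes are neighbours on 3L. The other genes of the list, Vm26Aa, Vm26Ac, Vm32E, Vm34Ca, psd and dec, stood between -1.50 and -0.60 at 16 h and did not pass. The 8 chorion genes stood between -7.40 and -4.87. At 64 h dec, Fcp3C and yellow-g2 fell, and the list had a median of -3.43 beside -5.49 for the chorion genes. The difference between the lists was not tested.

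The lists for yolk, for chorion gene control and for the germline had medians between -0.47 and -0.06 at 16 to 64 h. At 64 h 1 of 4, 1 of 14 and 1 of 14 genes passed, 2 as lower and 1 as higher, beside 293 of all 8199 probe sets. The 3 yolk protein genes and yl, the yolk receptor gene, had a median of -0.11 at 16 h and -0.47 at 64 h, where Yp3 fell by 0.65 log2 units (adjusted p = 0.0297). Of 14 tested genes for regulators of chorion transcription and for DNA amplification, among them EcR, usp, chif, Orc1 and Orc2, none passed at 16 h, and the median was -0.16. Dp, the partner of the E2F factors, fell by 0.41 at 32 h and 0.37 at 64 h (adjusted p = 0.0285 and 0.0216). Of 14 tested germline genes, 1 passed at 64 h, tud, which was higher by 0.47 (adjusted p = 0.00588), and none at 16 h. The germline list had a median of -0.09 at 16 h and -0.06 at 64 h. Pxt, a haem peroxidase gene of the ovary, stood at -0.18 at 16 h and did not pass, and Pxd, the chorion peroxidase gene, was too dim to be tested. In the line difference over the 9 times, 4 of 4 yolk genes, 5 of 14 regulator and amplification genes and Pxt passed as lower in selected flies. Of the germline list 1 of 14 passed as higher, and none of the 9 vitelline membrane and follicle cell genes passed. Over all probe sets 6.06% passed as lower and 6.13% as higher. Of 6 tested fat body genes, Lsp2, a storage protein gene, fell by 2.41 at 16 h, by 2.68 at 32 h and by 3.69 at 64 h, and beside it Yp3 fell at 64 h. The summed intensity of the 7 fat body genes ran from 43553 to 64826 at 16 h and from 31271 to 54522 at 64 h, against 51958 to 73696 in untreated flies. It was below that of the untreated array of the same line and replicate number in 4 of 4 arrays at 0.25, 1, 4 and 64 h. The count was 3 of 4 at 2 and 8 h and 2 of 4 at 16 and 32 h. The part of this sum in the chorion changes was not tested.

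**Figure D5:**
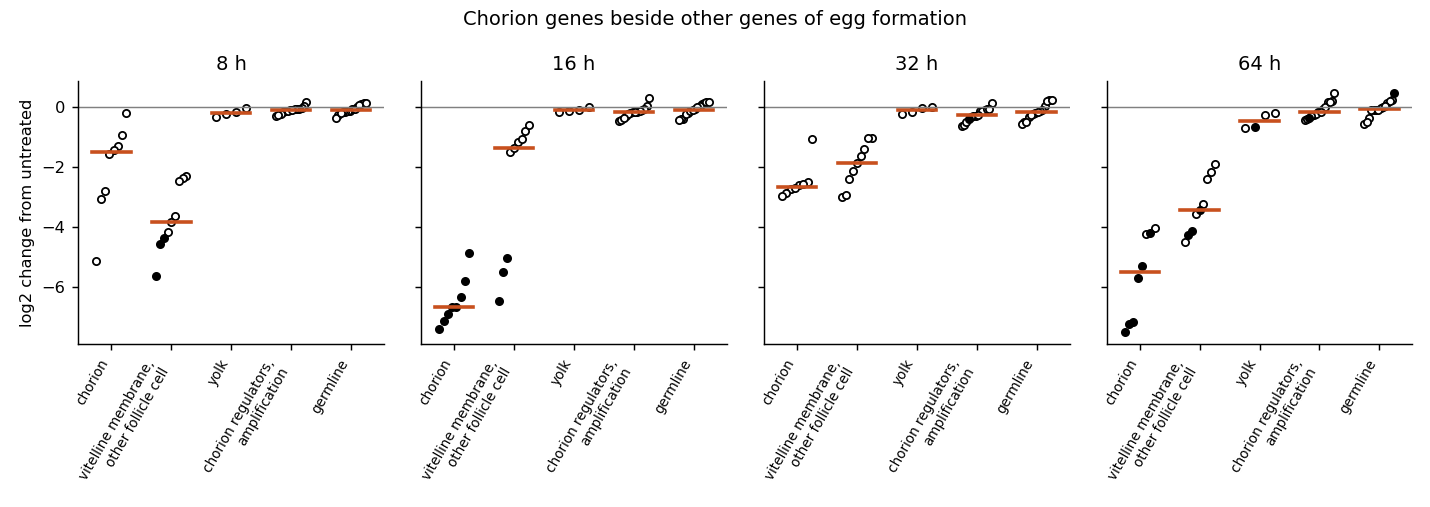
Log2 change from untreated flies (vertical axis) of single genes in 5 lists (horizontal axis) at 8, 16, 32 and 64 h. Filled points passed the test and orange bars are list medians. Chorion genes stood lowest at 16 h, with a median of -6.65, and the vitelline membrane and follicle cell genes stood lower than the chorion genes at 8 h.

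The 8 genes most like the chorion genes were found by Pearson's r between a probe set and the mean of the 8 chorion genes over the 36 arrays. They were CG13083 (0.982), CG13084 (0.979), CG4009 (0.953), CG11381 (0.945), yellow-g2 (0.929), yellow-g (0.929), Muc4B (0.920) and CG13114 (0.916). For comparison, each chorion gene correlated at 0.88 (Cp7Fc) to 0.97 (Cp19) with the mean of the other 7. CG13083 and CG13084 are neighbouring genes on 2L, and Muc4B, a gene named for its mucin-like protein, is the neighbour of Femcoat on X. The log2 change of CG13083 was -5.80 at 16 h and -4.98 at 64 h, and that of CG13084 was -6.05 and -4.92. These 8 genes were chosen for their course, so their changes are given without a test.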

How the data were processed

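The authors deposited intensities on a linear scale for 14010 probe sets and 36 arrays. The submitters' processing notes name GCRMA for these intensities, without a version. The annotation build of the array and the scanner settings are not given in the sources used here. Values ran from 1.15 to 46856 and array medians from 43.5 to 52.0. No 2 arrays were identical. Values were used as log2 with nothing added. Leaving out 44 controls, 13966 probe sets remained, of which 12443 had 1 symbol, 327 several and 1196 none in GEO's platform annotation, and 12394 were matched by Entrez identifier to the RefSeq table of Release 6. No sequence table was used here, so no sequences are shown.

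Probe sets whose 4 highest arrays averaged at least 5 (log2) were tested, 7312 of them with 1 symbol. One limma 3.58.1 model in R 4.3.3 (lmFit, eBayes, 18 residual degrees of freedom) had a coefficient for each of 18 groups, with Benjamini-Hochberg adjustment within each comparison. The fit was checked on simulated data with normal noise and 1 SD per probe set in all groups. That check does not cover a spread that grows late or values under an intensity of 32. Alternatives covered the filter, a floor of 32, a pseudocount of 16, normalization, moderation, array weights, the replicate number and each array left out. The labels call the replicates biological and do not say how they were raised. The p-values measure the spread between these samples, taken as 1 SD per gene over all 18 groups, though the spread of the chorion genes was larger late.

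All chorion genes with a probe set are named, with the 8 most correlated genes and examples from gene lists. Members, lists and tests were chosen with earlier results of these data known.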

Additional observations from a re-analysis of the deposited data

How the results depend on the processing

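The number of arrays, 2 per group, limits the precision, and the signal under an intensity of 32 has no order. No direction of a called chorion gene was reversed by any alternative run. At 8 h the count of chorion genes was 0, and 1 (Cp7Fc) with values under 32 set to 32, log2 of the value plus 16, array weights or the replicate block (adjusted p = 0.0136, 0.0179, 0.00509 and 0.0446). The same 4 alternatives raised the line difference over the 9 times from 0 to 1, again Cp7Fc. For selected flies at 16 h the count went from 0 to 1 with the floor of 32 and to 3 with array weights. For 32 h against 16 h array weights gave 0 in place of 1. For 64 h against 32 h the count was 1 in place of 0 (Cp19) with the stricter filter at 7, quantile normalization, the replicate block or the mean of all probe sets of a gene. In the restricted late fit, chosen after seeing the data, it was 3 in place of 8 at 16 h and 3 in place of 6 at 64 h, with 83 and 90 probe sets called in all against 196 and 293. The filter and the scaling otherwise left 6 to 8 calls at 16 h and 6 at 64 h.

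With arrays left out 1 at a time, counts were 0 to 1 at 8 h, 6 to 8 at 16 h, 0 to 5 at 32 h, 5 to 6 at 64 h, 6 to 8 over the series and 0 to 4 for the line difference. Within lines they were 0 to 4 (selected, 16 h), 0 to 6 (selected, 64 h), 0 to 6 (nonselected, 16 h) and 0 to 4 (nonselected, 64 h). They were 0 to 6 for 32 h against 16 h and 0 to 6 for 64 h against 32 h, and 0 throughout at 0.25 to 4 h, in untreated flies and for the interaction. A group left with 1 array was assumed to vary like the others. The share of all probe sets called in these fits is not given here, so these counts cannot be set against it.

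By the labels the replicates share only a number, yet the control 3' to 5' ratio separated all 18 replicate 1 arrays from all 18 replicate 2 arrays. Deviations of replicate 1 from the group mean correlated over 0.1 in 121 of 153 pairs of groups (median r 0.33), and 17 of 18 groups correlated on average above 0 with their own number. The replicate block left the chorion counts at 8 and 6 at 16 h and 64 h. It raised the count of all probe sets called at 0.25, 1, 2, 4, 8, 16, 32 and 64 h to 121, 224, 180, 63, 185, 399, 257 and 615, against 62, 104, 96, 29, 87, 196, 90 and 293 without it. Over the series it gave 2064 against 1086 and for the line difference 2349 against 1000. Within selected flies it gave 28 against 18 at 16 h and 139 against 51 at 64 h, and within nonselected flies 136 against 68 and 105 against 47. Array weights gave 223 at 8 h, 20 at 32 h, 36 and 216 for selected flies at 16 h and 64 h, 1 against 12 for 32 h against 16 h, and 6 against 22 for 64 h against 32 h. The stricter filter gave 51 at 32 h and 647 for the line difference, the late fit 22 at 32 h, and no filter 1 against 0 for the lines untreated. The causes were not tested.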
